A study of Bos taurus with 48 samples.

Results

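Arginine is the shared substrate of a small set of enzymes, and 10 of their genes were followed here in bovine endometrium on day 17 after oestrus: ASS1 and ASL, NOS2 and NOS3, ARG1 and ARG2, ODC1, AMD1, SMS and SAT1. They were found on the array by symbol, in the gene name column or in the last brackets of the probe description, among the 21475 probes that are not controls. Of the 10 genes, 7 matched the symbol as written and 3 matched through an older symbol of the same gene (NOS2A for NOS2, ASS for ASS1 and SAT for SAT1). They were read by 12 probes, since AMD1 and SMS had a pair of probes each.

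The endometrium came from 22 lactating Holstein-Friesian cows of mixed New Zealand and North American ancestry with synchronised oestrous cycles. Of these, 12 had received a grade 1 blastocyst on day 7 and were pregnant when slaughtered on day 17, and 10 were cyclic. From each cow caruncular endometrium (CAR, the raised aglandular areas where the placenta attaches) and intercaruncular endometrium (ICAR, the glandular tissue between them) were taken, which gave 44 samples. Each sample, labelled with Cy5, was hybridised to a 2-colour Agilent bovine array beside a Cy3-labelled pool of endometrium of both tissue types and both states, with no dye swap, and 4 CAR samples were hybridised again, for 48 arrays in all. The pregnant cows were further labelled by their embryo, 7 as large (over 20 cm and 75 mg) and 5 as small (under 20 cm and 40 mg), and by class, 6 as fertile and 6 as sub-fertile. The large group held 3 fertile and 4 sub-fertile cows and the small group 3 fertile and 2 sub-fertile cows. The basis of the fertility class is not given in the sources used here. All pregnancies came from transferred embryos, and the labels give a fertility class for pregnant cows only.

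ASS1 (argininosuccinate synthase) and ASL (argininosuccinate lyase) make arginine from citrulline and aspartate. The nitric oxide synthases turn arginine back into citrulline and release nitric oxide, a short-lived signal that relaxes vascular smooth muscle: NOS3 is the endothelial form and NOS2 the form that immune stimuli induce. The arginases ARG1 (cytosolic, abundant in liver and in some myeloid cells) and ARG2 (mitochondrial) split arginine into urea and ornithine. ODC1 (ornithine decarboxylase) makes putrescine from ornithine, AMD1 (adenosylmethionine decarboxylase) supplies the aminopropyl groups, SMS (spermine synthase) makes spermine, and SAT1 (spermidine/spermine acetyltransferase) acetylates the polyamines for export or breakdown. In ruminants arginine and polyamines in the uterine lumen are known to feed the growth of the elongating conceptus.

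All levels are log2 ratios of a sample to the pool, after each array was centred on its median, so 0 is the level of the pool and 1 is 2-fold above it. Levels were compared between samples of 1 probe, never between probes. Testing was limited to the 14690 probes whose Cy5 signal cleared background well and reached 80 units in 22 or more of the 44 samples. For the enzymes, 10 probes of 9 genes passed, 9 of the probes in all 44 samples. ARG1 passed in 16 samples and was not tested in that set, and its values are given below with its detection. Where a sample had 2 arrays their mean was used. Cows are named by the state and number in the labels (Pregnant_926, Non-Pregnant_9786).

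Array quality was alike in the groups: the share of spots well above background lay between 68.8% and 84% over the 48 arrays, with group medians of 70.0% to 72.6%. The layout limits the comparisons more. The arrays lay on 12 slides scanned on 3 dates, and the ICAR and CAR samples were scanned on different dates except for 2 slides, so tissue and scan date can be told apart only through those. Among the first arrays pregnant and cyclic cows shared a slide once in each tissue, where the same 3 sub-fertile pregnant cows (Pregnant_3803, Pregnant_3807 and Pregnant_9921) lay beside the same cyclic cow, Non-Pregnant_3972.

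Between pregnant and cyclic cows, both nitric oxide synthases fell in both tissues. A probe was counted as changed with at least a 1.5-fold difference and a Benjamini-Hochberg adjusted p below 0.05 over all 14690 probes (limma). In CAR 2 of the 9 tested genes fell (NOS2 and NOS3) and 1 rose (SAT1), beside 3.87% of all tested probes that fell and 6.08% that rose. In ICAR the same 2 genes fell and 0 rose, beside 2.91% and 4.28% of all tested probes. The median change of the 9 genes was -0.07 in CAR and 0.02 in ICAR, and that of all tested probes was -0.02 and 0.00. The same cows gave both tissues, so the tissues are not separate evidence.

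**Figure D1:**
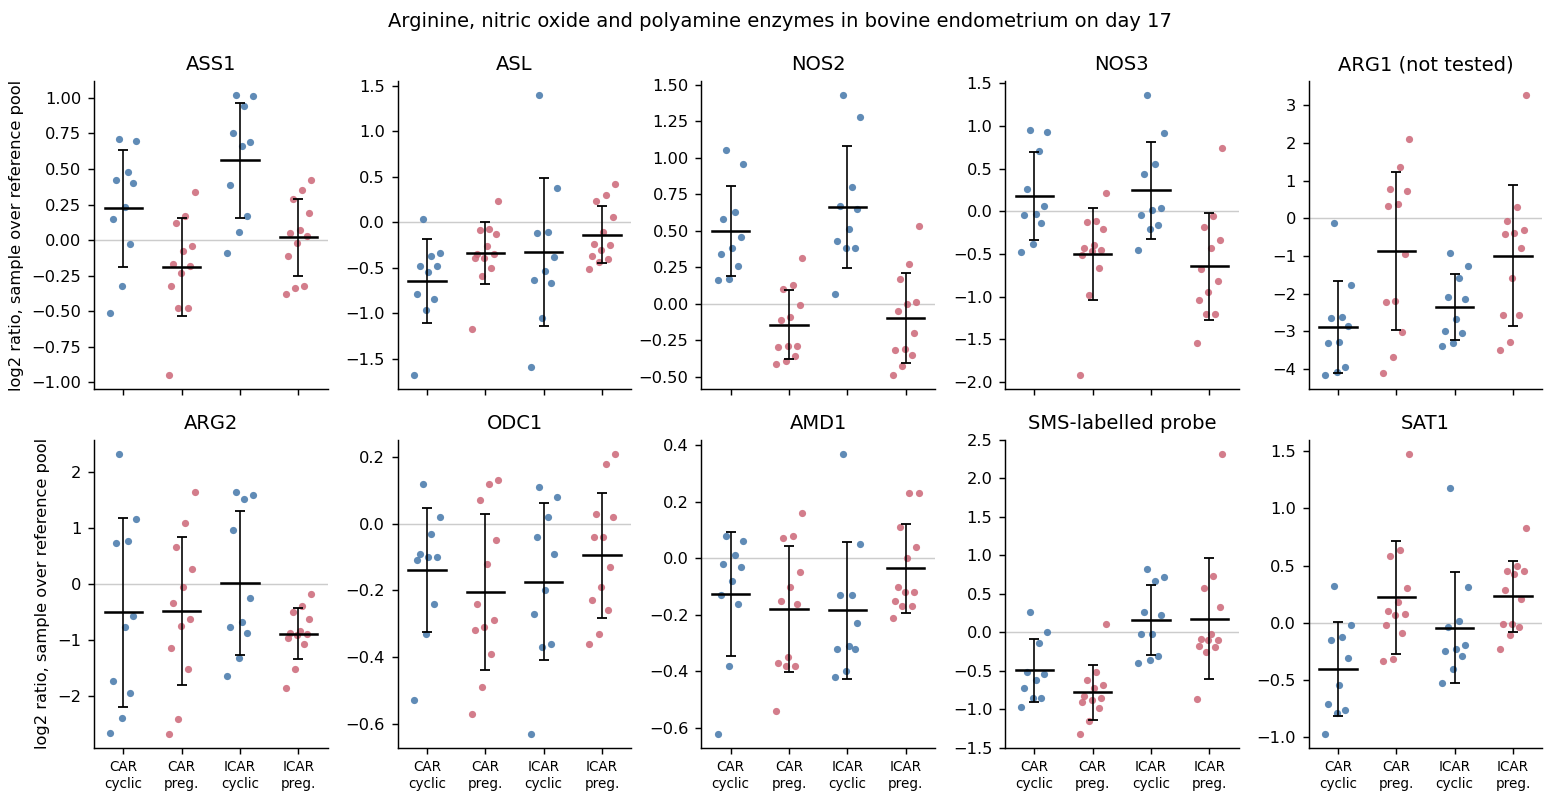
Log2 ratio to the pool (vertical axis) for each enzyme gene in cyclic and pregnant cows, by tissue. Each point is 1 sample, coloured by state, and bars give the mean and SD. Samples with a signal not well above background, of which ARG1 has many, are drawn like the others. NOS2 and NOS3 sit lower in pregnant cows in both tissues, and ARG2 spreads over several units within groups.

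Inducible nitric oxide synthase had the least overlap between states in CAR among the 9 genes. In CAR the NOS2 ratio ran from 0.16 to 1.05 in the 10 cyclic cows, with a median of 0.42, and from -0.41 to 0.31 in the 12 pregnant cows, with a median of -0.20. All 12 pregnant cows were below the cyclic mean and 11 were below every cyclic cow, the exception being cow Pregnant_3807. The difference was -0.64 ± 0.11 (SE), 1.56-fold lower, with an adjusted p of 0.000295. In ICAR the cyclic cows ran from 0.07 to 1.43 (median 0.58) and the pregnant cows from -0.49 to 0.53 (median -0.12), with 9 of 12 pregnant cows below every cyclic cow. There the difference was -0.76 ± 0.15, 1.69-fold lower, with an adjusted p of 0.00126. The highest cyclic values in each tissue were those of cows Non-Pregnant_9786 (1.05 and 1.43) and Non-Pregnant_2970 (0.96 and 1.28).

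The endothelial form fell by a larger amount, but with more overlap. In CAR NOS3 ran from -0.48 to 0.95 in cyclic cows, with a median of 0.02, and from -1.92 to 0.21 in pregnant cows, with a median of -0.44. Of the 12 pregnant cows, 11 were below the cyclic mean but only 4 were below every cyclic cow. The difference was -0.69 ± 0.22, 1.61-fold lower, with an adjusted p of 0.0225. In ICAR it ran from -0.45 to 1.36 in cyclic cows (median 0.03) and from -1.54 to 0.74 in pregnant cows (median -0.75). Here 11 pregnant cows were again below the cyclic mean and 7 were below every cyclic cow, with a difference of -0.89 ± 0.24, 1.85-fold lower, and an adjusted p of 0.0131. Cow Pregnant_9246 was the highest pregnant cow in both tissues, at 0.21 and 0.74.

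Markers of endothelium and smooth muscle, the cells of vessel walls, moved the same way as the synthases. Of 5 endothelial markers tested, PECAM1 and TEK fell in both tissues. PECAM1 fell by 1.27 on the log2 scale in CAR (adjusted p = 0.000743) and passed in ICAR as well (adjusted p = 5.93e-05), and TEK fell by 0.59 and 0.73, while VWF (-0.27 and -0.12), CDH5 (-0.43 and -0.47) and ENG (-0.14 and -0.34) did not reach 1.5-fold with an adjusted p below 0.05. The mean of the 5 endothelial markers ran from -0.39 to 0.61 in cyclic and from -0.74 to 0.35 in pregnant CAR samples, and from -0.12 to 0.91 and from -0.69 to 0.14 in ICAR. Of 5 smooth muscle markers 4 fell in each tissue, and their mean ran from -0.43 to 1.13 in cyclic and from -1.56 to 0.42 in pregnant CAR samples, and from -1.29 to 0.89 and from -1.74 to -0.01 in ICAR. Macrophage and monocyte markers, whose cells can express NOS2, went the other way: CSF1R and AIF1 rose in both tissues, 2 of 5 tested, and their mean ran from -1.11 to -0.25 in cyclic and -0.54 to 0.61 in pregnant CAR samples and from -0.90 to -0.22 and -0.58 to 0.64 in ICAR. The part of these cells in the fall of NOS2 and NOS3 was not tested. In bulk tissue fewer cells of a type and less RNA per cell cannot be told apart.

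The slides bear on both results. On the slides whose first arrays held both states, the mean of the 3 pregnant cows minus cow Non-Pregnant_3972 was -0.37 for NOS2 in CAR (0.01 against 0.38) and -0.31 in ICAR (0.07 against 0.38). For NOS3 it was -1.83 in CAR (-0.90 against 0.93) and -2.34 in ICAR (-0.97 against 1.36). Another slide held CAR arrays of 2 pregnant cows and 1 cyclic cow, of which all but that of cow Pregnant_9790 were repeat arrays, and there the differences were -0.60 for NOS2 (-0.12 against 0.48) and -1.24 for NOS3 (-0.26 against 0.98). With slide as a fixed block on the first arrays the fit rests on the contrasts with cow Non-Pregnant_3972, and neither gene passed in either tissue (adjusted p 0.699 and 0.231 in CAR, 0.806 and 0.107 in ICAR). With slide as a random block NOS2 passed in both tissues and NOS3 in ICAR, while NOS3 in CAR was at -0.77 with an adjusted p of 0.0527. Without cow Non-Pregnant_3972 the falls were -0.66 and -0.79 for NOS2 and -0.60 and -0.76 for NOS3 in CAR and ICAR, and all 4 passed.

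**Figure D2:**
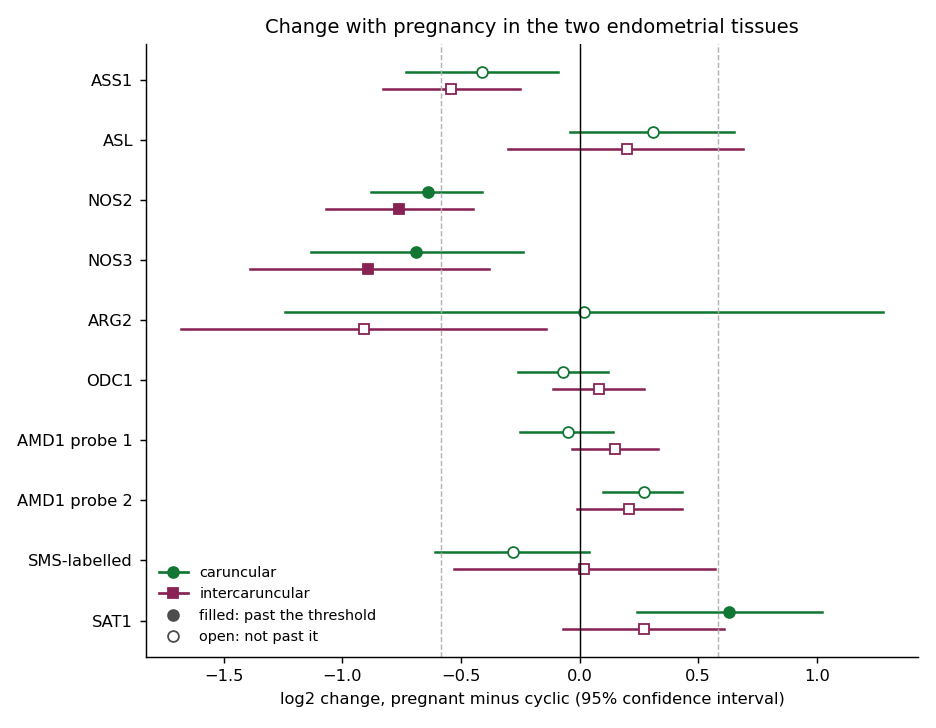
Difference in log2 ratio between pregnant and cyclic cows (horizontal axis) for each tested enzyme probe, with its 95% confidence interval; circles are caruncular and squares intercaruncular tissue, and filled symbols passed the threshold. NOS2 and NOS3 lie below 0 in both tissues, SAT1 lies above 0 in caruncular tissue, and the interval of ARG2 in caruncular tissue reaches from -1.24 to 1.28.

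Neither of the enzymes that make arginine reached the threshold between the states. In CAR ASS1 ran from -0.51 to 0.71 in cyclic cows (median 0.31) and from -0.95 to 0.34 in pregnant cows (median -0.18), a difference of -0.41 ± 0.15 with an adjusted p of 0.0527. In ICAR it ran from -0.09 to 1.02 (median 0.68) and from -0.38 to 0.42 (median 0.04), and 6 of the 10 cyclic cows were above every pregnant cow. That difference was -0.54 ± 0.14 with an adjusted p of 0.00914, and at 1.46-fold it was just under the 1.5-fold limit. For ASL the differences were 0.31 ± 0.17 in CAR (adjusted p = 0.178) and 0.20 ± 0.24 in ICAR (adjusted p = 0.595). Their sign was not the same in every fit with a slide block. In those fits slide cannot be told apart from cow Non-Pregnant_3972, the only cyclic cow beside pregnant ones among the first arrays. With slide as a fixed block they were -0.42 and -1.78 (adjusted p 0.766 and 0.0568), and with slide as a random block 0.28 and -0.05 (0.365 and 0.948). The lowest CAR value of ASL in cyclic cows was -1.68 and the highest 0.04, and in pregnant cows the range was -1.17 to 0.24, so the groups overlapped over most of their range. On the slide shared in ICAR, cow Non-Pregnant_3972 had the highest ASL (1.40) and ASS1 (1.02) of all cyclic cows, and without it the ASL difference was 0.38 in CAR and 0.39 in ICAR (adjusted p 0.0855 and 0.142).

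The arginases varied widely among cows. ARG2 ran from -2.67 to 2.33 in cyclic and from -2.68 to 1.64 in pregnant CAR samples, so pregnant cows covered most of the cyclic range, and the difference was 0.02 with a 95% interval of -1.24 to 1.28 (adjusted p = 0.985). In ICAR the cyclic cows again ran widely, from -1.64 to 1.65 with a median of -0.46, while the pregnant cows lay between -1.86 and -0.19 with a median of -0.89. There 4 of 10 cyclic cows, Non-Pregnant_1950, Non-Pregnant_2952, Non-Pregnant_3972 and Non-Pregnant_9960, were above every pregnant cow, at 1.52, 1.65, 1.59 and 0.96. The difference in ICAR was -0.91 ± 0.37 with an adjusted p of 0.0867. Without cow Non-Pregnant_3972, which had the highest ARG2 in CAR (2.33), the differences were 0.33 and -0.73 (adjusted p 0.7 and 0.155). On the slides shared with that cow the pregnant cows were lower, by differences of -3.38 in CAR (-1.06 against 2.33) and -2.74 in ICAR (-1.14 against 1.59), and on the CAR slide with repeat arrays the difference was -2.33 (-1.60 against 0.73). Fitted with slide as a random block they were -0.33 and -1.13 (adjusted p 0.788 and 0.125), so the sign in CAR changed with a slide block as well. Here too slide cannot be told apart from cow Non-Pregnant_3972. The SD within groups of ARG2, pooled over the 4 tissue and state groups, was 1.25 on the log2 scale, larger than that of 99.5% of tested probes, whose median was 0.28.

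ARG1 was near the limit of detection, and the pool was above background for it on all 48 arrays. Of the 12 pregnant cows 8 had a signal well above background in each tissue, against 1 of 10 cyclic cows in each (cow Non-Pregnant_9778 in CAR and cow Non-Pregnant_9786 in ICAR). The ratio ran from -4.17 to -0.14 in cyclic and from -4.12 to 2.11 in pregnant CAR samples, and from -3.39 to -0.93 and -3.51 to 3.27 in ICAR, where values of samples below background are no measured level. Pregnant cows thus spanned the cyclic range and reached beyond it, with 6 of 12 above every cyclic cow in CAR and 7 in ICAR. In a fit of all probes with no filter on signal ARG1 did not pass in either tissue (adjusted p 0.057 and 0.151), beside 4.95% and 3.42% of probes higher in pregnant cows in that fit. No size is given for that difference, since 9 of 10 cyclic samples in each tissue had no measured level.

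None of the enzymes of polyamine synthesis passed between the states (adjusted p of ODC1 0.628 in CAR and 0.566 in ICAR). ODC1 differed by -0.07 ± 0.09 in CAR (95% interval -0.26 to 0.12) and by 0.08 ± 0.09 in ICAR (-0.11 to 0.27), and its values lay between -0.63 and 0.21 over all 44 samples. The brighter AMD1 probe differed by -0.05 ± 0.10 and 0.15 ± 0.09 (adjusted p 0.71 and 0.243). The other AMD1 probe was higher in pregnant cows in CAR by 0.27 ± 0.08, with an adjusted p of 0.0188 but only 1.2-fold, and by 0.21 ± 0.10 in ICAR (adjusted p = 0.162), so the 2 probes of AMD1 did not give the same difference in CAR.

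SMS has to be read with care. The probe that stands for it carries SMS in its description, but is named on the array for the locus LOC534520, which the RefSeq gene table lists as a locus of its own, on another chromosome than SMS. The probe made for the SMS transcript itself was above background on 0 of 48 arrays in either dye, so whether SMS mRNA changed was not detectable here. The former is called the SMS-labelled probe below. Between the states it did not pass, at -0.28 ± 0.16 in CAR (adjusted p = 0.189) and 0.02 ± 0.27 in ICAR (adjusted p = 0.967).

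SAT1, the enzyme of polyamine acetylation, was the 1 gene that rose. In CAR it ran from -0.97 to 0.32 in cyclic cows, with a median of -0.42, and from -0.33 to 1.48 in pregnant cows, with a median of 0.09. All 12 pregnant cows were above the cyclic mean and 3 were above every cyclic cow, namely Pregnant_932, Pregnant_1943 and Pregnant_3956, all in the fertile class. The difference was 0.63 ± 0.19, 1.54-fold higher, with an adjusted p of 0.0181. In ICAR it was 0.27 ± 0.16 (adjusted p = 0.258), with cyclic values from -0.53 to 1.18 and pregnant values from -0.23 to 0.83.

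The rise in SAT1 lay close to the 1.5-fold limit. On repeat arrays of the same sample SAT1 was lower than on the first in all 4 cows, with differences of -0.49 to -0.20, whereas NOS2 moved by -0.08 to 0.14 and NOS3 by 0.00 to 0.13, and 3 of these 4 cows were cyclic. With the first arrays alone it was 0.57, under 1.5-fold (adjusted p = 0.0273), with scan date as a block 0.56 (0.0192), with slide as a random block 0.53 (0.124) and with slide as a fixed block 0.11 (0.965). The probe was saturated on 2 arrays, both of cyclic CAR samples (cows Non-Pregnant_3811 and Non-Pregnant_2970).

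Other genes of these pathways were taken from a fixed list of 42, of which 41 had a probe and 34 were tested. In CAR 1 rose and 5 fell, and in ICAR 0 rose and 2 fell, with median changes of -0.12 and -0.08. Over all tested probes 6.08% rose and 3.87% fell in CAR, and 4.28% and 2.91% in ICAR. Of 11 genes tested for the cofactor, inhibitors and targets of nitric oxide synthase, 3 fell in CAR and 1 in ICAR. DDAH1, which breaks down the natural inhibitors of the synthases, fell by 0.68 ± 0.23 in CAR (adjusted p = 0.0313) and by 0.77 ± 0.19 in ICAR (adjusted p = 0.00572). CAV1 (caveolin-1, which binds and restrains NOS3) fell by 0.61 ± 0.19 in CAR (adjusted p = 0.0221) and was at -0.36 ± 0.14 in ICAR (adjusted p = 0.0732). GUCY1B1, a subunit of the soluble guanylate cyclase that senses nitric oxide, fell by 0.71 ± 0.19 in CAR (adjusted p = 0.00869) and was at -0.28 ± 0.18 in ICAR (adjusted p = 0.265).

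Of 8 genes tested for arginine, proline, creatine and the urea cycle, 2 fell in CAR and 1 in ICAR. PYCR1, the last step of proline synthesis, fell by 0.91 ± 0.20 in CAR (adjusted p = 0.00236) and by 0.90 ± 0.16 in ICAR (adjusted p = 0.000446). ALDH18A1, the first step of the same path from glutamate, fell by 0.60 ± 0.09 in CAR (adjusted p = 4.67e-05) and was at -0.26 ± 0.09 in ICAR (adjusted p = 0.0466, under 1.5-fold). Of 12 polyamine genes tested 1 rose, MAT2B, a regulatory subunit of methionine adenosyltransferase, by 0.61 ± 0.12 in CAR (adjusted p = 0.000951) against 0.24 ± 0.10 in ICAR (adjusted p = 0.0962). Of the 3 arginine transporter genes tested 0 passed in either tissue. With slide as a random block DDAH1 was at -0.63 in CAR and -0.76 in ICAR but was no longer called (adjusted p 0.11 and 0.0532), nor were CAV1 at -0.54 (0.13) and GUCY1B1 at -0.64 (0.0793) in CAR, while PYCR1, ALDH18A1 and MAT2B kept theirs. With the repeat arrays in place of the first, ALDH18A1 was at -0.58 in CAR, under 1.5-fold (adjusted p = 0.000107). With slide as a fixed block all 8 calls of these 6 genes were lost, and GUCY1B1 in ICAR passed at -1.65 (adjusted p = 0.0475).

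**Figure D3:**
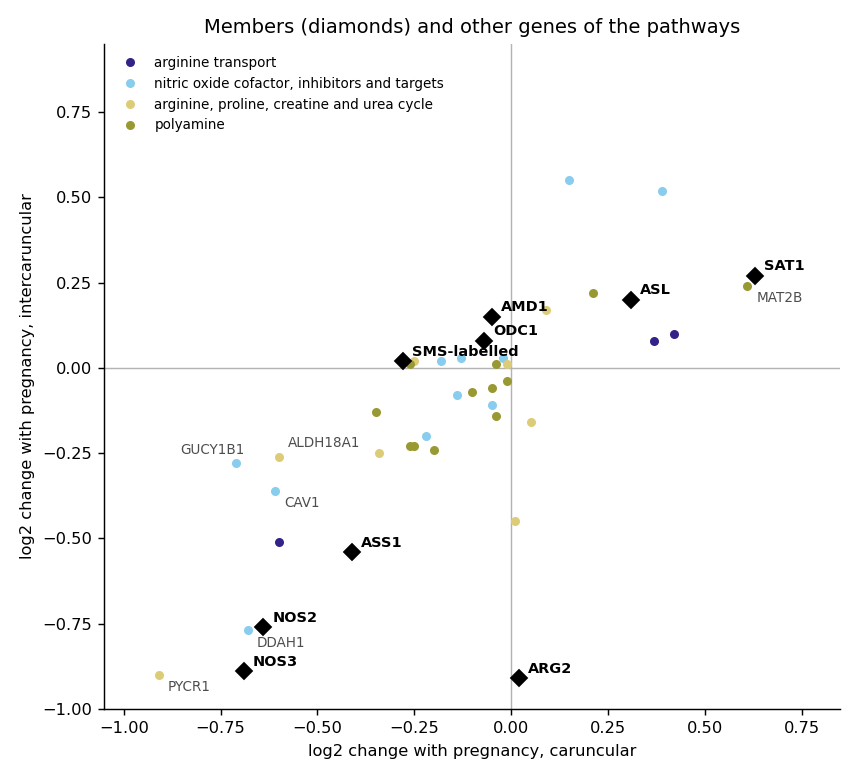
Difference between pregnant and cyclic cows on the log2 scale in caruncular tissue (horizontal axis) and in intercaruncular tissue (vertical axis) for the 9 tested enzyme genes (black diamonds) and the 34 other tested genes of the pathways (coloured by list); those that passed the threshold in a tissue are named. NOS2, NOS3, DDAH1 and PYCR1 lie together at the lower left; the same cows gave both axes.

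Between the tissues 1 probe differed. The SMS-labelled probe was lower in CAR than in ICAR of the same cow in 10 of 10 cyclic and 12 of 12 pregnant cows, with differences of -1.56 to -0.11 and -2.20 to -0.04. In the fit without a cow block the mean differences were -0.65 ± 0.24 in cyclic cows (adjusted p = 0.0266) and -0.96 ± 0.21 in pregnant cows (adjusted p = 0.000336). These were 1.57-fold and 1.94-fold lower, and 0 of the other 8 genes passed. With cow as a fixed block the errors were 0.16 and 0.15 (adjusted p 0.00173 and 7.9e-06, limma). In cyclic cows 5.38% of all tested probes were lower and 6.81% higher in CAR, and in pregnant cows 8.05% and 8.92%. In the 2 cows with both tissues on 1 slide, Non-Pregnant_9786 and Pregnant_9790, the differences were the smallest of their groups, -0.11 and -0.04, and with scan date as a block, arrays kept apart and cow as a random block, they were 0.00 (adjusted p = 1) and -0.31 (adjusted p = 0.598). Tissue and scan date therefore cannot be told apart for this probe. Another probe named for LOC534520 was at -0.26 ± 0.25 in cyclic cows (adjusted p = 0.428) and at -0.61 ± 0.23 in pregnant cows (adjusted p = 0.0237).

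Some cell type markers also differed between the tissues. Among epithelial markers 1 of 5 in cyclic and 4 of 5 in pregnant cows were lower in CAR, and their mean ran from -1.05 to 0.12 in CAR and from -0.41 to 0.04 in ICAR of cyclic cows, and from -1.49 to 0.30 and -0.32 to 0.50 in pregnant cows. Of the 2 gland markers FOXA2 was lower in CAR in both states (-1.57 and -2.65) and SERPINA14 was not (-0.16 and 0.29). Stromal markers were higher in CAR, 2 of 6 in cyclic and 5 of 6 in pregnant cows. Their part in the result was not tested. CDH1, an epithelial marker, went against the other 4 and was higher in CAR of pregnant cows (0.83).

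With cow as a block the tissue differences keep their size by construction, and their errors change. ASS1 in CAR minus ICAR was -0.34 in cyclic cows and -0.21 in pregnant cows, below 0 in 8 of 10 and 9 of 12 cows, with adjusted p of 0.00515 and 0.0413 with cow as a fixed block, 0.00749 and 0.0599 with cow as a random block and 0.0858 and 0.229 without a block. With scan date as a block as above the ASS1 difference was 0.02 in cyclic and 0.13 in pregnant cows (adjusted p 0.976 and 0.761), and in the same-slide cows it was -0.23 (Non-Pregnant_9786) and 0.17 (Pregnant_9790). ARG2 was lower in CAR in 9 of 10 cyclic cows, with a mean difference of -0.53 ± 0.62 (SD), and in 5 of 12 pregnant cows, with a mean of 0.40 ± 1.13 (SD). In both same-slide cows ARG2 was lower in CAR, at -1.02 in Non-Pregnant_9786 and -0.88 in Pregnant_9790.

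**Figure D4:**
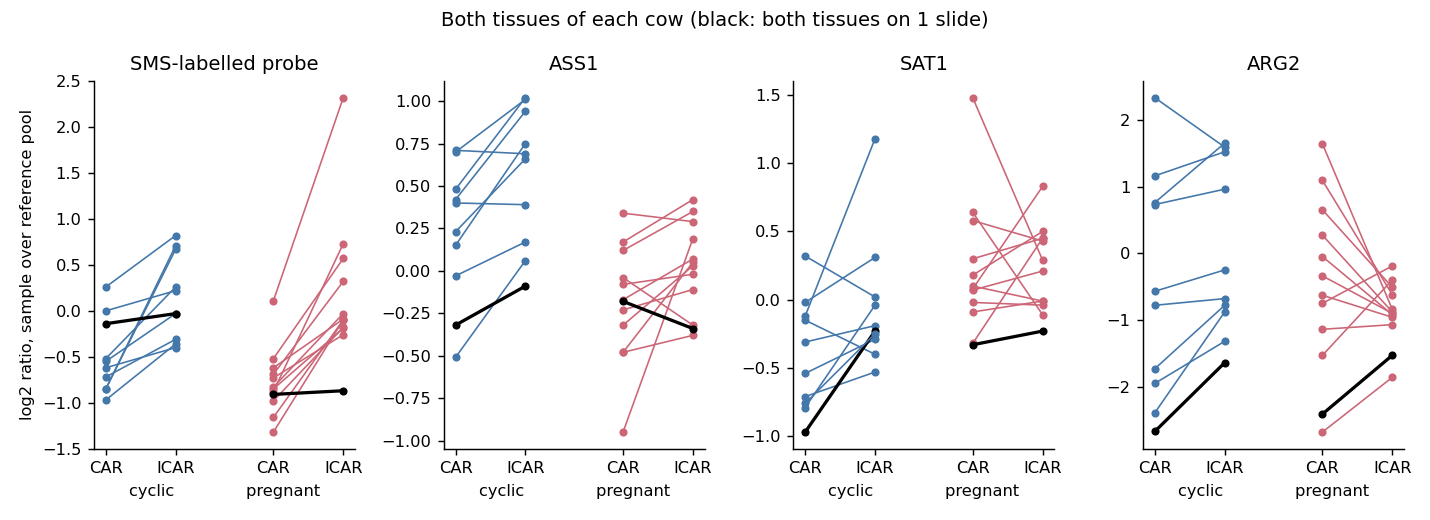
Log2 ratio in intercaruncular and caruncular tissue of each cow, joined by a line, for cyclic and pregnant cows; black lines are the 2 cows whose tissues lay on 1 slide, Non-Pregnant_9786 and Pregnant_9790. The SMS-labelled probe falls from intercaruncular to caruncular tissue in every cow, least in the 2 black lines.

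The pregnancy difference of ARG2, 0.02 in CAR and -0.91 in ICAR, was not shown to differ between the tissues. The difference of the 2 was 0.93 ± 0.73 (adjusted p = 0.897), and 0.93 ± 0.37 with cow as a fixed block (adjusted p = 0.197). For SAT1 it was 0.36 ± 0.26 (adjusted p = 0.869), for NOS2 0.11 ± 0.19 and for NOS3 0.20 ± 0.33 (adjusted p = 1 for both). None of the 9 genes passed in limma (0 at an unadjusted p below 0.05, beside 7.21% of all tested probes) or by the methods' t-test (0), beside 0.0204% of all tested probes, or 0.987% with the cow block. A larger pregnancy difference in 1 tissue is thus not shown for SAT1 or ARG2.

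Embryo size was compared among pregnant cows, with a call at an adjusted p below 0.05 of any size. In CAR 0 of the 9 genes passed in limma (0 at an unadjusted p below 0.05, 0 by the methods' t-test), as did 0% of all tested probes (7.01% unadjusted). The largest difference there was that of ARG2, -0.52 ± 0.71 in large against small (95% interval -2.07 to 1.02). In ICAR 0 of the 9 genes passed (2 at an unadjusted p below 0.05, 0 by the methods' t-test), beside 3.63% of all tested probes. At an unadjusted p below 0.05 there were 21.7% of all tested probes, so 2 of 9 is near the share over the array, and the values of these 2 genes are given as a description. NOS2 in ICAR ran from -0.49 to 0.01 in the 7 cows with a large embryo, with a median of -0.31, and was 0.53, 0.27, 0.17, 0.00 and -0.43 in the 5 with a small one (cows Pregnant_932, Pregnant_3807, Pregnant_9246, Pregnant_977 and Pregnant_3956). All 7 large-embryo cows lay below the small-embryo mean, and 3 small-embryo cows were above every one of them. The difference was -0.35 ± 0.15 (unadjusted p = 0.0349, adjusted p = 0.191), and without cow Pregnant_3956 it was -0.49 with an adjusted p of 0.0479. Embryo size and slide overlapped. The NOS2 difference was -0.72 on a slide with 1 large and 3 small embryos and -0.29 on one with 2 and 1. It was 0.10 on one with 3 and 1, where Pregnant_3956 was the only small-embryo cow. In limma with slide as a random block it was -0.32 (adjusted p = 0.18), and as a fixed block -0.30 (adjusted p = 0.236). Some marker means in ICAR were also lower in cows with a large embryo: the 5 endothelial markers ran from -0.69 to 0.01 (median -0.47) against -0.06 to 0.14 (median -0.03), the 5 smooth muscle markers had medians of -1.10 and -0.49, and the 6 stromal markers -0.53 and 0.00. Others were higher with a large embryo. Among these, macrophage and monocyte markers had medians of 0.30 and -0.24, neutrophil markers 0.50 and -0.91, gland markers 0.25 and -0.22, and epithelial markers 0.04 and -0.15. Their part in the NOS2 values was not tested. The brighter AMD1 probe differed by 0.20 ± 0.09 (unadjusted p = 0.0411, adjusted p = 0.208) and the other by 0.25 ± 0.14 (0.0963 and 0.321, limma). The SMS-labelled probe differed by -0.78 ± 0.38 (adjusted p = 0.251), where cow Pregnant_9246 stood at 2.32 in ICAR.

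Fertility class gave no call for any of the 9 genes in either tissue, and also almost none over the array. In CAR 0% of tested probes passed and in ICAR 0.0477%. At an unadjusted p below 0.05 there were 5 of the 9 genes in CAR and 0 in ICAR, beside 13.5% and 13.4% of all tested probes, and by the methods' t-test 0 passed in both (5 and 0 unadjusted). In CAR ARG2 ran from -0.75 to 1.64 in fertile cows (median 0.11) and from -2.68 to 0.65 in sub-fertile cows (median -1.33), with 4 of 6 sub-fertile cows below every fertile cow, a difference of 1.60 ± 0.56 (unadjusted p = 0.0137, adjusted p = 0.29). SAT1 ran from 0.08 to 1.48 and from -0.33 to 0.18, with 4 of 6 fertile cows above every sub-fertile cow, a difference of 0.62 ± 0.21 (0.0126 and 0.289). ASL ran from -0.35 to 0.24 and from -1.17 to -0.35, with 5 of 6 fertile cows above every sub-fertile cow, a difference of 0.46 ± 0.15 (0.00853 and 0.28). The brighter AMD1 probe differed by 0.29 ± 0.10 (0.0166 and 0.296) and NOS2 by -0.29 ± 0.11 (0.0197 and 0.307). The other AMD1 probe was at 0.03 ± 0.10 (0.762 and 0.915), so the probes of AMD1 did not give the same difference.

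In ICAR the same probes differed by less: ARG2 by 0.33 ± 0.24, SAT1 by 0.17 ± 0.17, ASL by 0.24 ± 0.17, the brighter AMD1 probe by 0.06 ± 0.10 and NOS2 by -0.04 ± 0.18. The other AMD1 probe was at -0.24 ± 0.14 there (adjusted p = 0.466, limma). Whether the tissues differed in this was not tested. Slide and class overlap heavily, since among the first arrays in each tissue 1 slide held fertile pregnant cows alone, 1 held 3 sub-fertile ones and 1 held both classes, and cow Pregnant_9790 (sub-fertile) lay on another slide, beside a repeat array of fertile cow Pregnant_926 in CAR. On the CAR slide whose first arrays held both classes (fertile cows Pregnant_932 and Pregnant_9246, sub-fertile cows Pregnant_977 and Pregnant_3805) the differences were 2.45 for ARG2, 0.96 for SAT1, 0.96 for ASL, 0.56 for the brighter AMD1 probe and -0.32 for NOS2, and on the ICAR slide of the same 4 cows -0.05, -0.10, -0.01, 0.00 and 0.59. The other AMD1 probe differed by 0.28 and -0.16 on these slides.

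By embryo size, ARG1 was above background in both tissues in 5 of 7 cows with a large and 3 of 5 with a small embryo. By class, all 6 fertile cows had ARG1 above background in both tissues, against 2 of 6 sub-fertile cows (Pregnant_3803 and Pregnant_9790) and 0 of 10 cyclic cows. The 6 fertile cows ran from -0.94 to 2.11 in CAR (median 0.57) and from -0.80 to 3.27 in ICAR (median -0.19), and the 6 sub-fertile cows from -4.12 to 0.73 (median -2.62) and from -3.51 to -0.41 (median -2.57). In ICAR 5 of 6 sub-fertile cows lay below every fertile cow, and in CAR also 5 of 6. Sub-fertile cow Pregnant_9790 was detected at low signals, with ratios of -3.68 and -2.56. In the fit with no filter on signal the classes did not pass (adjusted p 0.263 in CAR and 0.21 in ICAR), where 0% and 0.0279% of probes did, and no size is given, since 4 of 6 sub-fertile cows had no measured level in either tissue. On the slide with both classes the fertile cows were at 0.37 and 1.35 in CAR and at -0.39 and -0.31 in ICAR, and both sub-fertile cows were below background in both tissues.

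Neutrophils carry ARG1 in some species, and their markers were not tested by class. The mean of the 3 tested of 4 neutrophil markers ran from -0.53 to 0.44 in fertile and from -1.64 to 0.35 in sub-fertile CAR samples, with medians of -0.11 and -1.03, and from -0.96 to 0.53 and from -1.70 to 1.35 in ICAR, with medians of 0.15 and -0.19, so the classes overlapped in both tissues. MPO, the marker of that list that was not tested, was above background on 0 of 48 arrays. The tested markers S100A8, S100A9 and S100A12 were above background on 36, 44 and 48 arrays. Macrophage and monocyte markers ran from -0.54 to 0.61 in fertile and -0.15 to 0.32 in sub-fertile CAR samples, with medians of 0.00 and 0.07. In ICAR they ran from -0.58 to 0.64 and from -0.45 to 0.46, with medians of 0.28 and -0.02. Their part in the ARG1 values was not tested. Of the markers of conceptus trophoblast, IFNT2, PAG2, TKDP1 and CDX2 were above background on 0 to 3 of 48 arrays. PAG1, of the same list, was above background on 48 of 48, cyclic cows included, and differed between pregnant and cyclic cows by 0.18 ± 0.18 in CAR (adjusted p = 0.48) and -0.31 ± 0.24 in ICAR (adjusted p = 0.374).

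**Figure D5:**
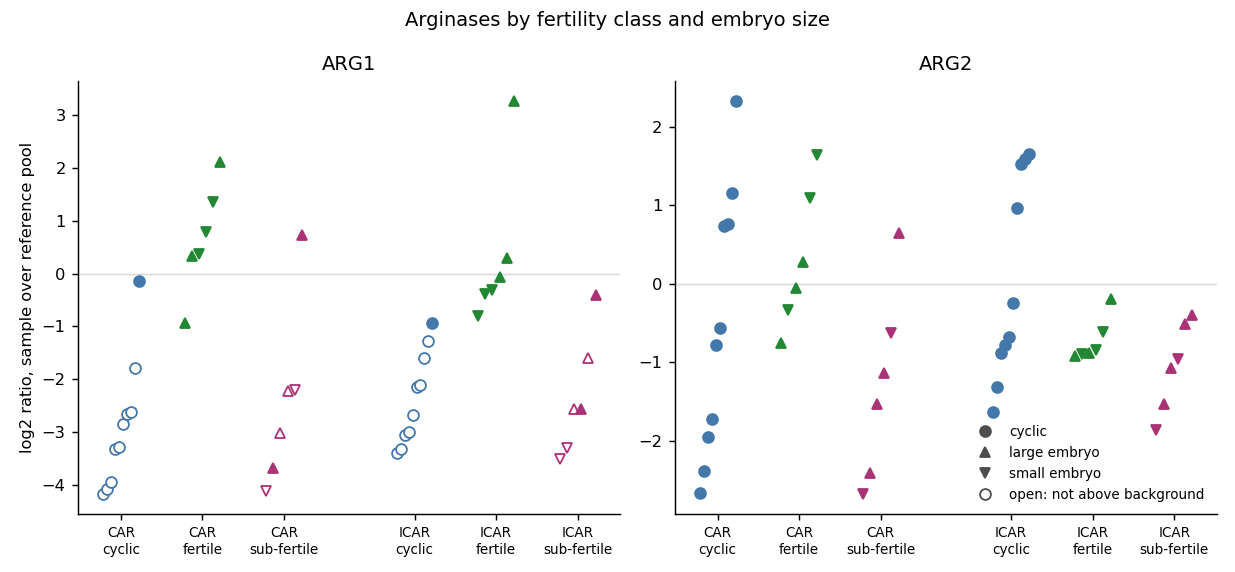
Log2 ratio of ARG1 (left) and ARG2 (right) in cyclic cows and in pregnant cows by fertility class, for caruncular (CAR) and intercaruncular (ICAR) tissue; each point is 1 cow, triangles pointing up are large and pointing down small embryos, and open symbols had a signal not well above background. ARG1 is filled for all 6 fertile cows in both tissues and for 2 of 6 sub-fertile cows.

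How far a cow kept its level across tissues was measured for each gene. Over 20 relations (10 genes in 2 states, of which the values of ARG1 are not given because many of its samples were below background), Pearson's r between CAR and ICAR of the same cow was highest, among the other genes, for ARG2 in the 10 cyclic cows, at 0.95 (Spearman's rho 0.95, both adjusted p = 0.0012, permutation test). It was 0.94 without the 2 cows whose CAR values lay farthest from the CAR median, called the 2 farthest cows below. Distance in ICAR was not used for this choice. In the 10 cyclic cows r was 0.94 for NOS2 (rho 0.87), 0.88 for ODC1 (rho 0.80), 0.84 for NOS3 (rho 0.73) and 0.84 for ASS1 (rho 0.78). Their adjusted p for r were 0.00133, 0.00385, 0.0102 and 0.0102 and for rho 0.0199, 0.041, 0.0671 and 0.041 by permutation test, and without the 2 farthest cows r was 0.76, 0.67, 0.78 and 0.63. ASL was at 0.78 (rho 0.67, adjusted p 0.0332 and 0.0915 by permutation test), which rests on the 2 farthest cows, since r was 0.23 without them. With the 9 cyclic cows whose tissues lay on different scan dates r was 0.94 for ARG2, 0.90 for NOS2 and 0.87 for ODC1.

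In the 12 pregnant cows NOS2 gave r = 0.06 (rho 0.04, adjusted p 0.886 and 0.918, permutation test). The pregnant values of NOS3 (r = 0.73, rho 0.66, adjusted p 0.0307 and 0.0671, permutation test) and of the SMS-labelled probe (r = 0.77, rho 0.53, adjusted p 0.0332 and 0.159, permutation test) fell to 0.49 and 0.36 without the 2 farthest cows. ARG2 stood at r = 0.56 (rho 0.47, adjusted p 0.112 and 0.229, permutation test). Whether cyclic and pregnant cows differed in these relations was not tested.

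Among themselves the genes fell into a loose pattern over the 44 samples once each tissue and state group was centred, given here as a description with pairs of samples from 1 cow. ARG2 varied with ASS1 (r = 0.67), ASL (0.64) and AMD1 (0.58), and NOS3 with ASS1 (0.64) and the SMS-labelled probe (0.62). NOS2 ran against ASL (-0.58), ARG2 (-0.58) and ASS1 (-0.54). Cow Non-Pregnant_3972 was the highest or next highest of the cyclic ICAR samples for ARG2, NOS3, ASL, ASS1 and SAT1, at 1.59, 1.36, 1.40, 1.02 and 1.18, and its part in these correlations was not tested. The spread within groups was large for NOS3 (SD 0.56, above 88.7% of tested probes), the SMS-labelled probe (0.54) and ASL (0.51) and small for ODC1 and AMD1 (0.21 each, above 29.2% and 28.8%).

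The genes on the array whose group-centred values over the 44 samples were most like each changed enzyme were named by the highest Pearson's r. For NOS3 they were THBD (thrombomodulin, a surface protein of endothelium; r = 0.88), PODXL (podocalyxin, found on endothelium and podocytes; 0.82) and CSRP2 (0.72). For NOS2 they were GIT2 (0.78), SNCAIP (0.76) and LIX1L (0.74), and for SAT1 they were MEP1B (0.70), RBBP8 (0.68) and PDZD8 (0.67). In each tissue taken alone r was 0.86 in CAR and 0.90 in ICAR for NOS3 and THBD, and less even for SAT1 and RBBP8 (0.82 and 0.44). The same samples served to choose these genes, so the values by tissue are a description and no separate evidence.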

How the data were processed

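The authors extracted the scanner images with Agilent Feature Extraction (9.5.3.1 per the file headers) and deposited 1 file per array. From each, the deposited log10 ratio of processed Cy5 over Cy3 signal was turned to log2, and outlier spots (0.53%) were left out. The spots of a probe (usually 2) were averaged, each array was centred on the median of the tested probes (-0.04 to 0.05 before centring), and repeat arrays were averaged. The deposited signal intensity, background-subtracted and dye-normalized by the authors' software, served for the filter, and mean and background intensity for the normexp alternative (offset 50). The authors' deposited log2 matrix of 17876 probes was an alternative. Its columns were set against the scanner values: it is log2, sample over pool, and not centred (column medians -0.03 to 0.06).

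Comparisons were fitted with limma 3.58.1 in R 4.3.3 (moderated, two-sided, Benjamini-Hochberg over all tested probes): pregnancy within each tissue, tissue within each state and their interaction in 1 fit of 4 groups, and embryo size and fertility class in the 12 pregnant cows of each tissue. The methods' t-test was run on the same values. Correlations used 100000 permutations (scipy 1.17.1). The scripts were tested on simulated data. Each cow gave both tissues: the tissues' deviations from their group means correlated at 0.11 to 0.87 (median 0.61) within the 22 cows, so cow was used as a block beside the unblocked fit. Alternatives changed the background correction, centring, filter, repeat arrays, blocks (cow, slide, scan date), test and source of values, and each pregnant cow was left out in turn for the embryo comparison. A fixed slide block in the embryo and fertility fits, and leaving out cow Non-Pregnant_3972, were chosen after seeing the data.

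Every gene was named. The brightest probe stood for a gene, and other pathway genes were named where they passed between states. The genes, lists and tests were chosen with earlier results of these data known. Probe names are those of the array design, looked up in the RefSeq gene table for ARS-UCD2.0, and no probe or transcript sequence is printed. The number of arrays and the signal over background limit the precision.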

Additional observations from a re-analysis of the deposited data

Results flagged for a closer look

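Of 110 sets of values (each enzyme in each group of 4 to 10 samples), 9 had 1 sample far from the rest, and chance alone gives about 1 set in 20. The embryo and fertility sets reuse the same cows, so the sets are not independent. Whether 9 exceeds chance was not tested. Cow Pregnant_3957, fertile with a large embryo, was highest for NOS2 among fertile CAR samples at -0.11 (the next was -0.29) and for ARG1 among fertile ICAR samples at 3.27 (next 0.29). Cow Pregnant_3803, sub-fertile with a large embryo, was lowest for NOS3 in sub-fertile CAR at -1.92 (next -0.66) and highest there for AMD1 at 0.07 (next -0.35). Cow Pregnant_3805 was lowest for ASL in CAR at -1.17, both among cows with a large embryo (next -0.50) and among sub-fertile cows (next -0.59). In cows with a small embryo, ARG2 in ICAR was lowest in cow Pregnant_3807 at -1.86 (next -0.96), and the SMS-labelled probe in CAR was highest in cow Pregnant_9246 at 0.11 (next -0.69). Cyclic cow Non-Pregnant_3972 stood at 1.18 for SAT1 in ICAR (next 0.31). Without it the pregnancy difference of SAT1 in ICAR was 0.41 with an adjusted p of 0.0261, still under 1.5-fold.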

How the results depend on the processing

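With slide as a fixed block 0 enzyme genes passed between states in CAR (3 in the unblocked fit) and 0 in ICAR (2), and with slide as a random block 1 passed in CAR. Between tissues 0 passed in cyclic cows and 0 in pregnant cows with scan date as a block (arrays kept apart, cow as a random block), where the SMS-labelled probe in cyclic cows turned to 0.00, and 0 passed in cyclic cows with normexp background correction (-0.47). Leaving out 1 pregnant cow at a time gave 0 to 1 genes for embryo size in ICAR, the 1 being NOS2 without cow Pregnant_3956. Of 1089 values of the enzymes under alternatives, 11 lost a call and 1 gained one. For 1 more the call was lost with a change of sign, but at 0.00. This was the SMS-labelled probe in cyclic cows with scan date as a block. Another 49, called in neither fit, changed sign. The cow as a replicate block, which the pairing of tissues allows, changed no call of an enzyme gene, for example NOS2 in CAR at -0.64 with an adjusted p of 0.000266, but raised the probes called for the difference between tissues from 3 to 145 (fixed) or 427 (random). Over all probes, slide as a fixed block gave 54 calls in CAR against 1461 and 130 in ICAR against 1055 (643 as a random block), the fit with scan date, separate arrays and cow as blocks gave 106 tissue calls in cyclic cows against 1792 and 1090 in pregnant cows against 2493, and embryo calls in ICAR ran from 33 to 1885 with 1 cow left out (533 with all). How many of these calls were shared, and the cause, were not tested.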
